A study of Mus musculus with 6 samples.

Results

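The transcripts followed here were those of the activator protein 1 (AP-1) transcription factors and 3 further immediate early genes, in mouse microglia that had been kept for 24 h together with neutrophils. There were 10 such genes among the 55335 gene identifiers of the table. They were chosen by symbol, namely the Jun family (Jun, Junb and Jund), the Fos family (Fos, Fosb, Fosl1 and Fosl2), Atf3, Egr1 and Ier3, and each had 1 identifier. The microglia were primary cells of C57BL/6 mice, labelled wild type (WT) in all samples, which came from newborn brains and were detached by shaking from mixed glial cultures on day 14. The neutrophils had been isolated with magnetic beads from spinal cord lesions 3 days after a contusion at T10, from Cd177 WT mice in one group and from Cd177 knockout (KO) mice in the other. CD177 is a surface protein of neutrophils. After co-culture, microglia were collected by flow sorting as cells without Ly6G, a neutrophil surface protein. Each group had 3 libraries, so there were 6 in all, and microglia kept without neutrophils were not among them. The groups therefore differ in the genotype of the neutrophils, not in that of the cells that were sequenced.

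Nothing in the labels says that the 3 libraries of a group came from separate cultures, so the p-values below measure the spread between these libraries, which may be technical. Levels are given as FPKM (fragments per kilobase of transcript, scaled to the mapped fragments of the library), which divides by transcript length and so lets the levels of different genes be set side by side. A depth of about 15570000 to 19230000 fragments per library was estimated from the steps between low values. This estimate is rough, since most of these values did not fall near whole steps. Of 12 shared macrophage markers none was under 1 FPKM, whereas 11 of 15 microglia markers were under 1 FPKM in every library, and Sall1, C1qa and Fcrls were listed at 0. In FPKM values an exact 0 can be a failed estimate as well as an absent transcript, and these cannot be told apart here. The microglia markers summed to 171.1 to 175.3 FPKM in WT libraries and to 201.3 to 209.3 FPKM in KO libraries. All 20 neutrophil markers were under 1 FPKM in every library, with S100a9, Ly6g, Mpo and 7 others at 0, and their sum was 2.10 to 2.23 FPKM in WT libraries and 0.914 to 1.30 FPKM in KO libraries. The 8 astrocyte, 9 oligodendrocyte and 9 fibroblast and endothelial markers were all under 1 FPKM in every library. Mitochondrial genes held 11.1% to 11.3% of the summed FPKM with WT and 14.3% to 14.6% with KO neutrophils. The 8 genes tested below were lower also after rescaling without mitochondrial genes. The part of the neutrophil and microglia markers in the results was not tested. In bulk RNA, fewer cells of a type and less RNA per cell cannot be told apart.

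AP-1 is a dimer of basic leucine zipper (bZIP) proteins that binds DNA at short recognition sites. Jun proteins can pair with each other or with a Fos or ATF protein, while Fos proteins need a partner. Immediate early genes are those that a cell transcribes within minutes of a stimulus without first making new protein, and most of their transcripts are short-lived. In microglia and macrophages, cytokines and bacterial products act on them through MAP kinases and NF-kB, and so can the handling of cells.

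To see whether these genes differed between microglia exposed to either kind of neutrophil, the level of each was compared between the groups. Transcripts of 8 of the 10 genes were lower with KO neutrophils, from Ier3, which was 4.19-fold lower, through Junb (2.75-fold) and Fosl1 (2.72-fold) to Jun (1.21-fold), as ratios of mean FPKM. The other two, Fosb and Egr1, were near or under the limit of detection and were not tested. The test was limma on log2(FPKM + 1), with Benjamini-Hochberg adjustment over the 11395 genes that averaged 1 FPKM or more, and an adjusted p under 0.05 was counted as a call. Of the 8 genes that passed this filter, 8 were called lower, beside 18.8% of all genes tested, 24.5% of all genes were called higher, and 43.3% were called in either direction. All 8 had at least 3.19 FPKM in every library, so none passed the filter through 1 group alone. Every KO library lay below every WT library for 8 of the 8, and for 24.6% of all genes. More than 2-fold lower in the fit were Ier3, Junb and Fosl1, 3 of the 8, beside 2.02% of all genes. An exact two-sided permutation test gave p = 0.1 for each of the 8, the smallest p that 3 libraries against 3 allow. The direction of small changes across the table depended on scaling, since 43.4% of the called genes were lower on the deposited scale and 54.9% after the libraries were rescaled to a common sum. Over all genes the median change (log2) was 0.02 on the former scale and -0.02 on the latter.

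**Figure D1:**
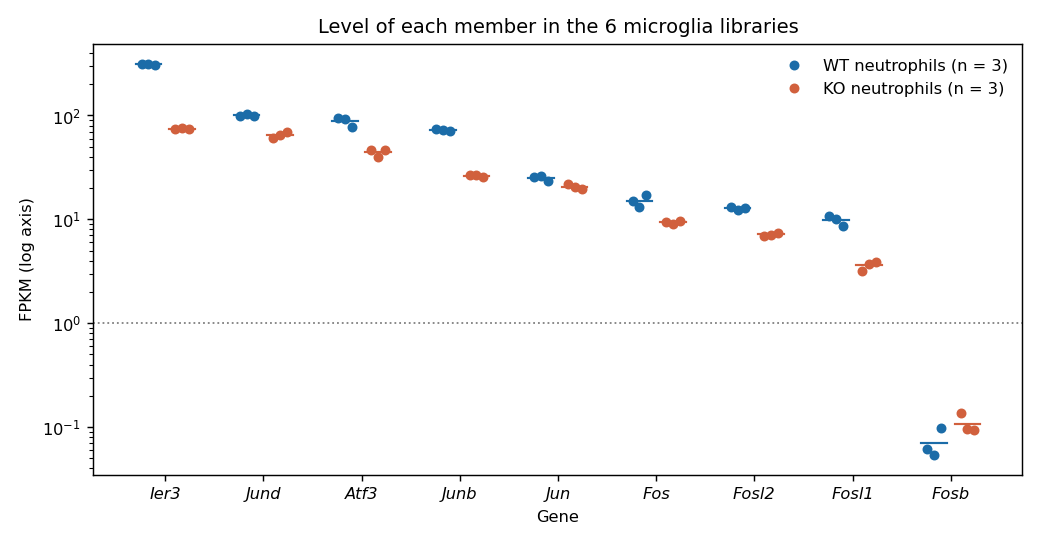
Level of each gene in every library, in FPKM on a log axis, after co-culture with WT (blue, n = 3) or KO neutrophils (orange, n = 3). Points are libraries, short lines are group means, the dotted line is 1 FPKM, and Egr1, listed at 0 in 5 of 6 libraries, is left out. The orange points lie below the blue ones for 8 genes, and Fosb lies under 1 FPKM in both groups.

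The Jun family supplies the AP-1 subunits that can bind DNA without a Fos partner. Jund, which many cells transcribe without a stimulus, was the most abundant of the 3 (chromosome 8, 70698949 to 70700616, plus strand, GRCm38, as in the GENCODE M21 annotation). In the WT libraries it stood at 99.3, 104 and 98.4 FPKM, and in the KO libraries at 61.3, 65.0 and 68.6 FPKM. The WT libraries were close together, and the highest KO library stayed well under the lowest WT library. It changed by -0.62 on the log2 scale (SE 0.045, limma adjusted p = 0.000109), or 35.4% lower as a mean FPKM.

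Junb, whose protein often takes the place of Jun in dimers and limits Jun activity in many settings, had the largest change of the family (chromosome 8, 84974484 to 84978718, minus strand). With WT neutrophils its level was 73.4, 72.2 and 70.9 FPKM, and with KO neutrophils 27.0, 26.5 and 25.4 FPKM. Both groups were tight and far apart. On the log2 scale the change was -1.42 (SE 0.031, limma adjusted p = 7.02e-07), and 111 genes of the 11395 had a larger fall.

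Jun, the founding member, differed least (chromosome 4, 95049034 to 95052222, minus strand). The values were 25.3, 26.1 and 23.5 FPKM against 21.7, 20.4 and 19.8 FPKM. The groups did not overlap, but the lowest WT library and the highest KO library were near each other. The log2 change was -0.26 (SE 0.051, 95% interval -0.39 to -0.14, limma adjusted p = 0.00710), and 1636 genes of the table had a larger fall. Jun, Junb and Jund are genes of 1 exon in the annotation. Prdx2, a peroxidase gene on the other strand, shares exon sequence with Junb and had 26.9, 27.9 and 28.4 FPKM in WT libraries and 38.9, 37.9 and 39.1 FPKM in KO libraries, the opposite direction. Whether the counting used strand is not stated, so reads in the shared stretch cannot be told apart. The antisense genes Junos and Gm11175, which share exon sequence with Jun and Jund, had at most 0.463 and 0.107 FPKM.

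The make-up of the Jun family transcripts differed between the groups as well. Jund made up 50.9% ± 0.651 of the family's summed FPKM with WT neutrophils and 58.0% ± 2.28 with KO neutrophils (SD, n = 3 each). Junb went the other way, from 36.5% ± 0.737 to 23.5% ± 1.13, and Jun had 12.6% ± 0.371 and 18.5% ± 1.18 (SD, n = 3 each). For none of the 3 shares did the groups overlap. There were 0.346 ± 0.0149 Jun transcripts per Junb transcript with WT and 0.785 ± 0.0170 with KO neutrophils (SD, n = 3), a ratio that the scaling of a library does not touch. These shares are given as a description, with no test.

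The Fos family proteins bind DNA only in a dimer, and c-Fos and FosB carry strong activation domains that Fra-1 and Fra-2, the products of Fosl1 and Fosl2, lack. Fos (chromosome 12, 85473890 to 85477273, plus strand) is the classical immediate early gene. It had 14.9, 13.02 and 17.3 FPKM in WT libraries and 9.47, 9.11 and 9.71 FPKM in KO libraries. The WT libraries were more spread than the KO libraries, and WT replicate 3 was the highest. The log2 change was -0.61 (SE 0.095, 95% interval -0.84 to -0.38, limma adjusted p = 0.00288).

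Fosl1, a family member that is typically held up by lasting ERK signalling, changed most in the family (chromosome 19, 5447547 to 5455946, plus strand). Its levels were 10.7, 9.995 and 8.61 FPKM in WT libraries and 3.19, 3.73 and 3.88 FPKM in KO libraries. Here WT replicate 3 was the lowest of its group, and still lay far above the KO libraries. Its change on the log2 scale was -1.23 (SE 0.094, limma adjusted p = 0.000136). Ccdc85b, which shares exon sequence on the other strand, had 2.26, 2.45 and 2.33 FPKM in WT libraries and 5.04, 2.83 and 3.97 FPKM in KO libraries, higher in every KO library.

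Fosl2 (chromosome 5, 32135801 to 32157842, plus strand) had 13.02, 12.3 and 12.9 FPKM in WT libraries and 6.94, 7.10 and 7.46 FPKM in KO libraries. Spread within each group was small beside the gap between them. The fitted change was -0.75 on the log2 scale (SE 0.042, limma adjusted p = 3.40e-05). Fosb (chromosome 7, 19302696 to 19310051, minus strand) was hardly present, at 0.0617, 0.0536 and 0.0977 FPKM in WT libraries and 0.136, 0.0953 and 0.0929 FPKM in KO libraries. The level of 3 fragments depends on the transcript counted. For the shortest annotated Fosb transcript (1090 bases) it was 0.177 FPKM (WT) and 0.173 FPKM (KO), above all 6 libraries, and for the longest (3782 bases) 0.0510 and 0.0499 FPKM, below all 6. No fold is given (exact two-sided permutation p = 0.3). This level covers counting error only.

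Within the Fos family, Fosl1 made up 26.0% ± 3.40 of the summed FPKM with WT and 17.7% ± 1.35 with KO neutrophils, and Fos 39.9% ± 4.03 and 46.5% ± 1.34 (SD, n = 3 each). The share of Fosl2 was nearly level, at 33.9% ± 0.859 and 35.3% ± 0.137. The groups did not overlap for any of these shares, although the highest WT library and the lowest KO library were close for Fos and for Fosl2.

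Summed over each family, both sets of partners were lower with KO neutrophils, by a like share. Jun family transcripts summed to 197.7 ± 4.72 FPKM in WT libraries and 111.9 ± 1.90 FPKM in KO libraries, 43.4% lower, and Fos family transcripts to 37.7 ± 1.97 and 20.3 ± 0.741 FPKM, 46.1% lower (SD, n = 3 each). The ratio of the Jun sum to the Fos sum was 5.12, 5.71 and 4.95 in the WT libraries and 5.57, 5.58 and 5.38 in the KO libraries. These ratios overlapped, so at this spread no difference in the balance of the families was seen, while the make-up within each family differed.

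**Figure D2:**
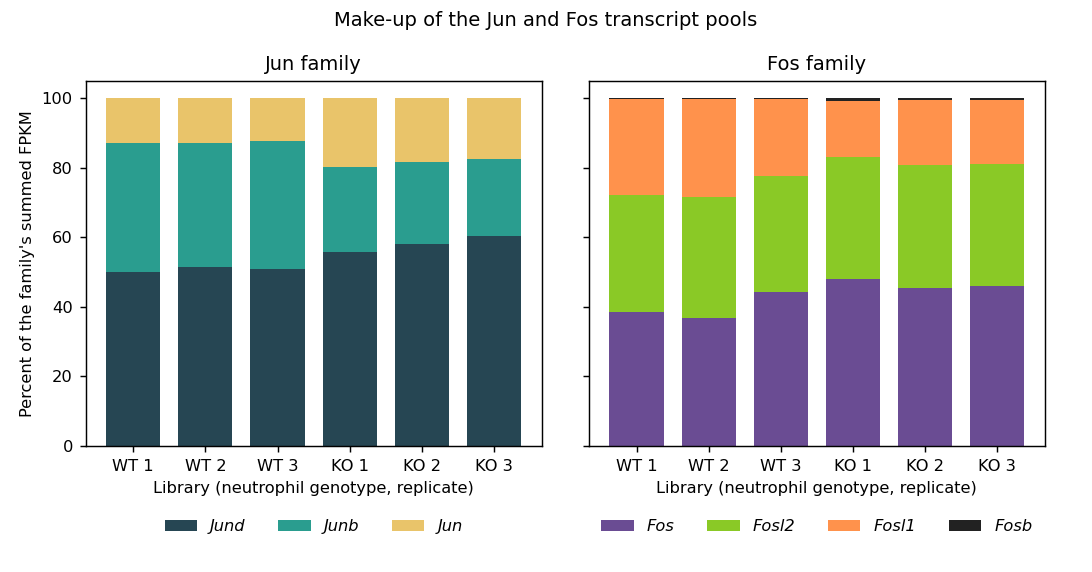
Share of each gene in the summed FPKM of the Jun family (left) and of the Fos family (right), in percent, with 1 bar per library and colours for genes. In the KO libraries the Junb and Fosl1 parts of the bars are smaller (Junb 23.5% against 36.5%, Fosl1 17.7% against 26.0% as means), and the Jund, Jun and Fos parts are larger.

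Atf3, a bZIP protein induced by many kinds of cell stress that pairs with Jun proteins and often represses, lies on chromosome 1 (191170296 to 191218039, minus strand). It had 94.1, 92.8 and 78.0 FPKM in WT libraries and 46.7, 40.0 and 46.7 FPKM in KO libraries. WT replicate 3 stood below the other WT libraries and KO replicate 2 below the other KO libraries, with a wide gap between the groups. The log2 change was -0.97 (SE 0.092, limma adjusted p = 0.000339), so Atf3 lay just short of 2-fold in the fit.

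Ier3, which encodes a short-lived protein that acts on cell survival and on ERK and NF-kB signalling, was both the most abundant of the 10 genes and the one with the largest change (chromosome 17, 35821684 to 35822923, plus strand, 2 exons). With WT neutrophils it stood at 311, 316 and 304 FPKM, and with KO neutrophils at 73.7, 75.3 and 73.5 FPKM. Libraries of a group differed by little, and the groups were far apart. The log2 change was -2.05 (SE 0.022, 95% interval -2.104 to -1.998, limma adjusted p = 4.09e-08), and 49 genes of the 11395 had a larger fall. Egr1, a zinc finger immediate early gene on chromosome 18, was listed at 0 in 5 of 6 libraries and at 0.0140 FPKM in KO replicate 1. That lay under the level of 3 fragments. This level was 0.0635 FPKM (WT) and 0.0621 FPKM (KO) for the shortest annotated transcript and 0.0430 and 0.0421 FPKM for the longest. Egr1 transcripts were thus not detected in either group. Whether a listed 0 is an absent transcript or a failed estimate cannot be told here.

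The order of the levels was the same in both groups, namely Ier3, Jund, Atf3, Junb, Jun, Fos, Fosl2 and Fosl1. Fosb and Egr1 came below them, and their own order is not given, since both were near or under the level of 3 fragments. Neighbours among the 8 did not overlap over the libraries of a group. With WT neutrophils, however, the lowest Fos library (13.02 FPKM) met the highest Fosl2 library (13.02 FPKM), so these neighbours were not separated by more than their spread. Distances changed more than the order did. There were 3.09 ± 0.0475 Ier3 transcripts per Jund transcript with WT and 1.14 ± 0.0659 with KO neutrophils, and 1.39 ± 0.0447 against 2.48 ± 0.217 Jund transcripts per Junb transcript (SD, n = 3 each). Among genes of at least 1 FPKM, Ier3 was at percentile 99.0 with WT and 95.3 with KO neutrophils, Junb at 95.1 and 83.5, Fosl1 at 57.4 and 25.8, and Jun at 82.7 and 78.7.

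**Figure D3:**
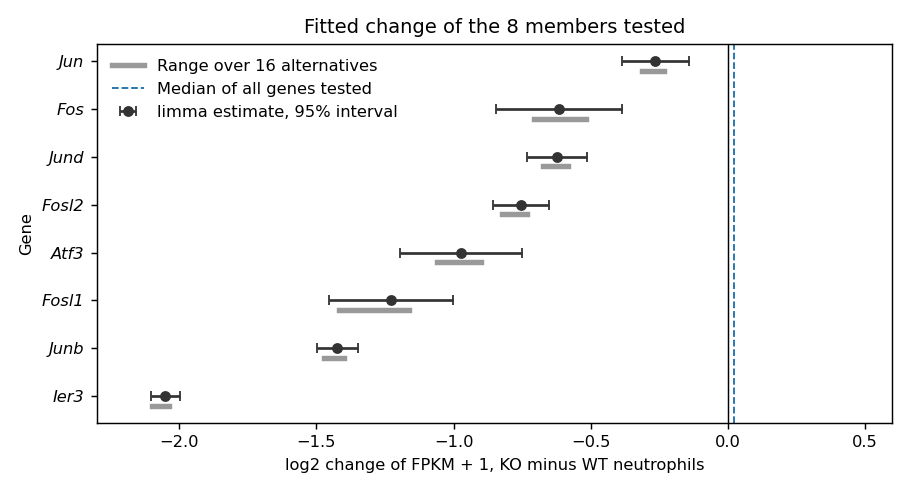
Fitted log2 change of FPKM + 1, KO minus WT neutrophils, for the 8 genes tested, with the 95% interval (black) and the range over 16 alternative settings (grey bars). The dashed line is the median of all genes tested, 0.02. All intervals lie below 0, from Jun at -0.26 to Ier3 at -2.05.

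The promoters of genes that moved together are shown so that their differences can be read from the letters. RefSeq start sites on GRCm38.p6 were given for 8 of the 10 genes. For Ier3 and Junb, which changed most, for Atf3, and for Fos and Jun, whose promoters are textbook cases, the 250 bases before the start site read as follows, in the direction of transcription. Capitals mark a match to the NF-kB consensus, to the core TGACG of the cyclic AMP response element (CRE) on either strand, to the CRE-like site TGACATCA or to the TATA box TATAAA. The last bases of the Ier3 and Atf3 stretches reach into a first exon of the GENCODE annotation, and the others lie outside annotated exons.
Ier3 (chr17:35821463-35821712, plus strand): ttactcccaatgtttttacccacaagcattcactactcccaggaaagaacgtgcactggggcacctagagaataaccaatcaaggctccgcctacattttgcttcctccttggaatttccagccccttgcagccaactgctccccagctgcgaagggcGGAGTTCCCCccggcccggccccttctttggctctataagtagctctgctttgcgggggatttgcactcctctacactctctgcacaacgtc
Junb (chr8:84978749-84978998, minus strand): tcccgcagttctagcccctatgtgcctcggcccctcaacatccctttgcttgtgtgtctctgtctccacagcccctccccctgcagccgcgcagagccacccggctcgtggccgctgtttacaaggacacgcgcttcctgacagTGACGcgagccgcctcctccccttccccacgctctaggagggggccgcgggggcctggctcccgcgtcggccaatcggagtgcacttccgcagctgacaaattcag
Atf3 (chr1:191183334-191183583, minus strand): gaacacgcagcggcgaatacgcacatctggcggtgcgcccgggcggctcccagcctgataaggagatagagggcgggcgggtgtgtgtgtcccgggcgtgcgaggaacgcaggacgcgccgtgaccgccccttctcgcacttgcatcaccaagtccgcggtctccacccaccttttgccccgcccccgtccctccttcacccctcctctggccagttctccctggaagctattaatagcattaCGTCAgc
Fos (chr12:85473640-85473889, plus strand): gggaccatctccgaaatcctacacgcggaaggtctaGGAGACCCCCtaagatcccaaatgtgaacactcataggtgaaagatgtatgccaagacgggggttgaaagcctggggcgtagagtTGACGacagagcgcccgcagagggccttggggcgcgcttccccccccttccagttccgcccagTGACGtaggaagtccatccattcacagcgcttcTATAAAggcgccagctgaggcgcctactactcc
Jun (chr4:95052223-95052472, minus strand): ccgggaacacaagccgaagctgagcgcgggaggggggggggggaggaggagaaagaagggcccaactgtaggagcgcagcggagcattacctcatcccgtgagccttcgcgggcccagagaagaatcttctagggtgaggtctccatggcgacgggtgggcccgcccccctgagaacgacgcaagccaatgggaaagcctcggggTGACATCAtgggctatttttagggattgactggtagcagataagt

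Motifs were searched on both strands in windows of 300 bases, 250 before and 50 after each start site, in the 8 genes and in all 32851 RefSeq windows. The NF-kB consensus was found in Ier3 (positions -92 to -83, counted back from -1 next to the start site), Fos (-214 to -205), Fosl2 and Fosb, 4 of the 8 windows, beside 4.51% of all windows. The CRE core TGACG was in Fos, Junb, Atf3 and Fosb, 4 of 8, beside 20.8% of all windows. Jun was the 1 gene of the 8 with TGACATCA (-45 to -38), which 3.62% of all windows hold. Neither the full AP-1 site TGACTCA nor the full CRE TGACGTCA was in any of the 8 windows, and they were in 5.20% and 1.79% of all windows. The GC box GGGCGG was in 6 of 8 windows, those of Atf3, Jun, Fosl2, Fosb, Fos and Ier3, and in 35.7% of all. TATAAA was in the windows of Fos (-33 to -28) and Junb (1 to 6, after the RefSeq start), and in 13.6% of all. The RefSeq start of Junb lies 30 bases upstream of its GENCODE start, so this match lies before the GENCODE start. The serum response CArG box and the EGR site GCGTGGGCG were in 0 of 8 windows and in 1.63% and 0.612% of all. Sites more than 250 bases before a start site were not searched, so these genes may hold such sites farther upstream. In Fosl2 the GC box and the NF-kB match do not overlap, and in Ier3 they share bases. The windows with the NF-kB match were those of Ier3, Fosl2 and Fos, with log2 changes of -2.05, -0.75 and -0.61, and of Fosb, which was not tested. Those without a match were Junb, Atf3, Jund and Jun, at -1.42, -0.97, -0.62 and -0.26, and Fosl1 and Egr1 had no window. The RefSeq start used for Jund lies 1210 bases upstream of the GENCODE start given above, so its window is not next to that start. For Atf3 (191183333) and Fosl2 (32136472) the RefSeq start lies downstream of the GENCODE start, inside the gene span given above. Their windows, with the printed Atf3 stretch and the Fosl2 NF-kB match, are therefore not next to the GENCODE starts either. A match is a run of letters, not a bound site.

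The other bZIP genes, which can pair with or compete with AP-1 subunits, were then counted. Of 32, 26 were tested, and 14 were lower, 4 higher and 8 not called with KO neutrophils, with a median log2 change of -0.24 beside 0.02 for all genes, of which 18.8% were called lower and 24.5% higher. Creb5 averaged under 1 FPKM with KO neutrophils and so was tested because of its WT level. Of the 25 that averaged 1 FPKM or more in both groups, 13 were lower (52%) and 4 higher (16%), beside 18.5% and 24.6% of all 11050 such genes. Maff, a small Maf protein without an activation domain, had 16.95, 18.1 and 14.8 FPKM in WT libraries and 5.52, 5.90 and 6.56 FPKM in KO libraries (log2 change -1.33, SE 0.087, limma adjusted p = 6.76e-05). The groups were apart in all libraries. Cebpb, a C/EBP factor of inflammatory genes, fell from 140.2 ± 0.933 to 86.0 ± 4.25 FPKM and Creb5, a Jun partner, from 2.43 ± 0.00736 to 0.828 ± 0.0326 FPKM, while Atf5, a relative of Atf4, rose from 48.8 ± 1.12 to 65.6 ± 0.458 FPKM (SD, n = 3 each). Nfe2l2 and Creb3, named after their values were seen, were also called higher. Creb3 was not called under 10 of the 16 alternatives.

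Among 36 other immediate early genes, 26 were tested, of which 17 were lower, 4 higher and 5 not called, with a median log2 change of -0.46. Egr3 averaged under 1 FPKM with WT neutrophils, and Myc and Sgk1 (named after their values were seen) with KO neutrophils, so they were tested because of the other group. Of the 23 with 1 FPKM or more in both groups, 15 were lower (65.2%) and 3 higher (13.04%), beside 18.5% and 24.6% of all genes at that level. Phlda1, a pleckstrin homology protein that was the farthest of them, had 13.7, 12.5 and 14.1 FPKM in WT libraries and 1.11, 1.19 and 1.28 FPKM in KO libraries (log2 change -2.72, SE 0.062, limma adjusted p = 8.68e-07). Plk2, a polo-like kinase, had 124, 125 and 125 FPKM and then 55.6, 55.2 and 55.1 FPKM (log2 change -1.16, SE 0.018, limma adjusted p = 1.93e-07). Their groups were tight and did not overlap. Btg1, an antiproliferative gene, fell from 38.0 ± 1.77 to 18.5 ± 0.139 FPKM, and Nr4a1, an orphan nuclear receptor, from 19.1 ± 0.111 to 8.05 ± 0.781 FPKM (SD, n = 3 each). Rgs2, a regulator of G protein signalling, went up by 1.04 on the log2 scale (limma adjusted p = 2.81e-06), from 15.6 ± 0.321 to 33.3 ± 0.843 FPKM (SD, n = 3 each). Sik1, Klf10 and Egr3 were also called higher, and the 5 that were not called were Ier2, Rhob, Rgs1, Klf4 and Nr4a2 (these 8 were named after their values were seen). Egr3, of the same zinc finger family as Egr1, had 1.06, 0.725 and 0.854 FPKM in WT libraries and 2.72, 2.87 and 2.43 FPKM in KO libraries.

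Kinases and serum response factors upstream of AP-1 were counted in the same way. Of 40, 35 were tested, with 7 lower, 4 higher and 24 not called, and a median log2 change of 0.04. All 35 averaged 1 FPKM or more in both groups, and the lower calls were 20% of them and the higher calls 11.4%, beside 18.8% and 24.5% of all genes tested. The share of lower calls was thus near that of the table. After rescaling to a common sum 9 were lower and 2 higher. Mapkapk2, the p38 target kinase that stabilises cytokine transcripts, had 168, 167 and 170.5 FPKM in WT libraries and 93.7, 95.4 and 95.02 FPKM in KO libraries, without overlap (log2 change -0.82, SE 0.019, limma adjusted p = 8.87e-07). Map2k6, which activates p38, fell from 4.37 ± 0.128 to 1.99 ± 0.277 FPKM and Map2k1, which activates ERK, from 52.7 ± 0.586 to 39.1 ± 0.648 FPKM (SD, n = 3 each). Map3k1, which acts earlier in the JNK cascade, rose from 7.42 ± 0.502 to 11.0 ± 0.290 FPKM (SD, n = 3 each). Mrtfa and Rps6ka1, named after their values were seen, were also called higher, and neither was called after rescaling to a common sum.

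Of 25 genes with known AP-1 control, 19 were tested, and 12 were lower, 4 higher and 3 not called, with a median log2 change of -0.36. Il6, Il1b and Mmp9 averaged under 1 FPKM with KO neutrophils and were tested because of their WT levels. Of the 16 with 1 FPKM or more in both groups, 9 were lower (56.2%) and 4 higher (25%), beside 18.5% and 24.6% of all such genes, so the share of higher calls was near that of the table. After rescaling of all 19 to a common sum 15 were lower and 3 higher. The 5 with the smallest p were Ptgs2, Ccl2, Tnf, Il6 and Il1b, inflammatory genes that NF-kB controls as well. Ccl2, a chemokine for monocytes, had 1149, 1179 and 1179 FPKM in WT libraries and 49.6, 49.1 and 45.4 FPKM in KO libraries (log2 change -4.58, SE 0.036, limma adjusted p = 1.00e-08). Ptgs2 and Tnf fell too, with log2 changes of -5.09 and -3.70. For Il6 (0.0423, 0.171 and 0.128 FPKM in KO libraries, 18.04 ± 0.772 FPKM in WT libraries) and Il1b (0.0845, 0.0551 and 0.116 FPKM, against 4.72 ± 0.238 FPKM) no log2 change is given (SD, n = 3), since the added 1 FPKM sets its size where values are so low. Plau, Mt1, Mt2 and Ccnd1 were higher, and Icam1, Cd44 and Tgfb1 were not called (these 7 were named after their values were seen). Plau, which encodes urokinase, had 90.4 FPKM in WT libraries and 166 FPKM in KO libraries as means, the reverse of the Fos and Jun genes.

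Since AP-1 genes also respond to the handling of cells, heat shock genes were counted beside them. Of 15, 12 were tested, with 1 lower, 6 higher and 5 not called, and a median log2 change of 0.10. All 12 averaged 1 FPKM or more in both groups, and the higher calls were 50% of them and the lower call 8.33%, beside 24.5% and 18.8% of all genes tested. After rescaling to a common sum 2 were lower and 4 higher. Hspa8, a constitutive chaperone, had 288, 299 and 284 FPKM in WT libraries and 491.5, 369 and 388 FPKM in KO libraries, where KO replicate 1 stood above the others (log2 change 0.51, SE 0.104, limma adjusted p = 0.00908). Dnaja1 rose from 8.79 ± 0.401 to 12.6 ± 0.216 FPKM, and the mitochondrial chaperones Hspd1 and Hspe1 rose from 596.5 ± 3.21 to 655 ± 2.91 FPKM and from 120 ± 2.29 to 135.0 ± 0.158 FPKM, while Hspa4l fell from 7.22 ± 0.149 to 5.01 ± 0.160 FPKM (SD, n = 3 each). The stress-induced Hspa1a, Hspa1b and Hspb1 had at most 0.202 FPKM in any library. The part of handling in the lower AP-1 levels was not tested.

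**Figure D4:**
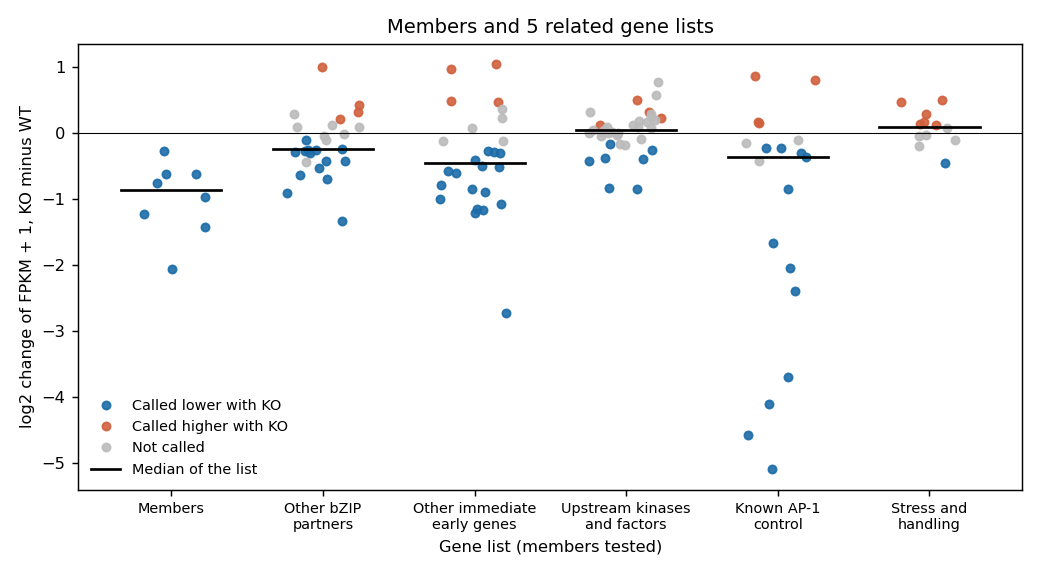
Fitted log2 change of FPKM + 1, KO minus WT neutrophils, for the AP-1 and immediate early genes tested and for 5 related gene lists. Points are genes (blue called lower, orange called higher, grey not called) and black lines are medians. The medians are -0.24 for other bZIP genes, -0.46 for other immediate early genes, 0.04 for upstream kinases and factors, -0.36 for genes with known AP-1 control and 0.10 for stress genes.

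Lastly, genes were ranked by how closely their profile over the 6 libraries followed that of Ier3, as the root mean square difference of log2(FPKM + 1) profiles, each centred on its own mean, among 7375 genes of at least 5 FPKM. The closest were Tnfrsf1b, a TNF receptor (0.0397), Procr, the protein C receptor (0.0513), St3gal1, a sialyltransferase (0.0535), Slfn2, a Schlafen family gene (0.0565), and Cpd, a carboxypeptidase (0.0641). Their profiles share the libraries with Ier3, so this is a description. Cpd had 116, 115 and 119 FPKM in WT libraries and 29.8, 30.2 and 29.5 FPKM in KO libraries, and Procr had 67.2, 64.1 and 64.5 against 15.3, 15.9 and 16.2 FPKM. As for Ier3, the libraries within a group were close and the groups far apart.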

How the data were processed

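The authors deposited 1 table of FPKM values per gene and library, with replicates kept apart. The submitters' processing notes name fastp 0.17.1, HISAT2 2.1.0, DESeq2 1.18.1 and R 3.4.3 without their roles. The program that made the FPKM values, the genome build, the annotation and the strand setting are not given in the sources used here. The labels and the methods name different library kits and sequencers, so neither is stated.

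Groups and replicate numbers came from the labels. Identifiers were matched to GENCODE M21 (GRCm38), 55154 of 55335 (99.67%). For Ddit3, which 2 identifiers share, the value is uncertain. Log2(FPKM + 1) was fitted with limma 3.58.1 in R 4.3.3 (lmFit, eBayes with a mean-variance trend), KO minus WT, without covariates, on the 11395 genes that averaged 1 FPKM or more. A change on this scale understates that of low genes. Python 3.11.15 with numpy 2.4.6 and pandas 2.3.3 served for the rest, and the fit was tested on simulated data.

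Depth is not part of FPKM. The most common step between low values was taken as 1 fragment, 0.0520 to 0.0642 FPKM for 1 kb. Only 17.6% to 18.4% of low values then fell in a window of 0.1 fragment around a whole number, against 10% by chance, so reads were not recovered and no count test was run.

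The genes and lists were chosen with earlier results of these data known. All 10 genes were named, and of each list the 5 tested members with the smallest p, some of which are not reported here. Tried as alternatives were a smaller pseudocount (0.1), testing without a filter or from an average of 5 FPKM, rescaling to a common sum or without mitochondrial genes, quantile normalization, median centring, array weights, a fit without the variance trend, a replicate block, and leaving out each library.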

Additional observations from a re-analysis of the deposited data

How the results depend on the processing

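Under the 16 alternatives the 8 AP-1 and immediate early genes tested stayed lower with KO neutrophils and under the threshold in all 128 comparisons (8 genes, 16 settings). The fitted log2 change ranged from -2.10 to -2.04 for Ier3, -1.47 to -1.40 for Junb, -1.42 to -1.16 for Fosl1, -1.06 to -0.90 for Atf3, -0.82 to -0.73 for Fosl2, -0.67 to -0.58 for Jund, -0.71 to -0.52 for Fos and -0.31 to -0.23 for Jun. The highest limma adjusted p was 0.0267, for Jun without KO replicate 2. The number of genes called over the whole table was 4930 and ranged from 3763 (averages of 5 FPKM or more) to 4931. Calls among other immediate early genes went from 21 to 13 when an average of 5 FPKM was required, which left fewer genes to test. Calls among upstream kinases went from 11 to 7 with a replicate block, and lay between 7 and 10 when 1 library was left out, 7 without WT replicate 3 and without KO replicate 2, and the cause was not tested. The replicate numbers did not pair the libraries (correlation of deviations of same-numbered libraries -0.075, -0.052 and -0.005), and with the block 4212 genes were called, the 8 genes among them. Of 240 comparisons in all, 236 stayed on their side of the threshold or within 1.5 times of the count. The planned count test was not run, since whole reads were not recovered. Depth limits what can be said of Fosb and Egr1.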
